A study of Mus musculus with 47 samples.

Results

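Loss of EED in medullary thymic epithelial cells (mTECs) that already lack Aire was read from 6 of the 47 libraries of bulk RNA sequencing. The members were chosen by their titles as all mTEChi libraries of newborn AireEEDdKO mice (n = 3) and of newborn AireKO mice (n = 3), paired by replicate number. All mice were on the C57BL/6 strain. AireKO mice carry a disrupted Aire gene. AireEEDdKO mice carry the same Aire defect and also lose floxed EED in thymic epithelium through Foxn1-Cre, which acts in the whole thymic epithelial lineage from fetal life, so that the change is not limited to mature cells. The loss of Aire is shared by both groups, and whether AireKO mice also carried floxed EED or Cre is not given in the sources used here. In each group replicate 1 was a pool of male and female animals at 4 days, replicate 2 was male at 6 days and replicate 3 was male at 4 days. The cells were sorted as CD45-, EpCAM+, Ly51- cells with high surface MHC class II. Beside them stand newborn mTEChi libraries with Aire, from Ctrl (n = 5) and EEDcKO mice (n = 3) aged 1 to 6 days. The rest of the series covers mTEClo cells, with low MHC class II, and WT and AireKO cells of adult mice, aged 4 to 6 weeks by the labels.

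EED belongs to the core of PRC2, the second Polycomb repressive complex, which places a trimethyl mark on lysine 27 of histone H3 and keeps developmental genes silent. EZH2 is its catalytic subunit, SUZ12 a scaffold, and RBBP4 and RBBP7 bind histones, while the other Polycomb complex, PRC1, binds the mark and compacts chromatin. Mature mTECs express genes of many other tissues so that developing T cells can be tested against them, and Aire is the regulator best known for this. Some mTECs also take on the programs of gut, muscle, skin or tuft cells and are called mimetic cells. The comparison asks what PRC2 holds down, and what depends on it, when Aire is not there.

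The 6 libraries held between 1646162 and 3695066 counts, and both libraries numbered 3 were the deepest of their group. Levels are given as CPM, the counts scaled by TMM to a common library size, in the order of replicates 1, 2 and 3 and with AireKO first. Values in parentheses after levels are log2 fold changes, AireEEDdKO minus AireKO, and adjusted p-values are edgeR's. Aire had 114, 44.4 and 51.6 CPM in AireKO and 22.2, 32.1 and 9.86 in AireEEDdKO, against 613 ± 153 in Ctrl (mean ± SD, n = 5). The deleted stretch of Aire is not known from the files, so these reads are transcripts of the locus and not of intact Aire, and Aire overlaps Dnmt3l. Aire was lower in AireEEDdKO by 1.76 on the log2 scale (edgeR adjusted p = 0.028), a call lost without AireKO replicate 1 (-1.25), AireEEDdKO replicate 1 (-1.83) or AireEEDdKO replicate 3 (-1.35). Eed had 34.7, 47.8 and 35 CPM in AireKO and 16.9, 11.5 and 12.1 CPM in AireEEDdKO. The groups did not overlap, and Eed fell by 1.54 (SE 0.25, edgeR adjusted p = 0.00014), so transcripts of the locus were reduced and not lost. The labelled cell type was checked by 10 markers of mTECs, among them the keratins Krt5, Krt8, Krt14 and Krt18, the claudins Cldn3 and Cldn4, and Cd80. Their summed level was 2766 to 4685 CPM in AireKO and 2734 to 4045 in AireEEDdKO, and 0 of 10 were called. Epcam was 349, 344 and 251 CPM in AireKO and 181, 187 and 198 in AireEEDdKO, a difference of -0.73 with adjusted p = 0.0046, under 2-fold. Lists of other cells summed to 73.4 to 113 CPM in AireKO and 96.2 to 99.9 in AireEEDdKO for thymocytes, and to 288 to 414 and 259 to 426 CPM for myeloid cells, with 0 members called among 10 and 11 tested. In bulk RNA, fewer cells of a type and less RNA per cell cannot be told apart.

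EED loss without Aire raised more genes than it lowered. Of 20196 genes tested, 1913 (9.47%) were called, which here means a 2-fold or larger change with an edgeR adjusted p below 0.05. Of these 1352 were higher (6.69%) and 561 lower (2.78%) in AireEEDdKO. The direction was the same in all 3 same-numbered pairs for 1335 higher and 559 lower genes. The call rests on the same 6 libraries and sets much of this agreement, so it is no separate evidence. The groups did not overlap for 1310 higher and 550 lower genes, where 18.9% and 15.8% of all tested genes did not overlap in those directions. The median log2 fold change was 1.72 over the higher genes, -1.58 over the lower genes and 0.03 over all tested genes. Among higher genes 168 changed by at least 8-fold, and among lower genes 50 did.

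**Figure D1:**
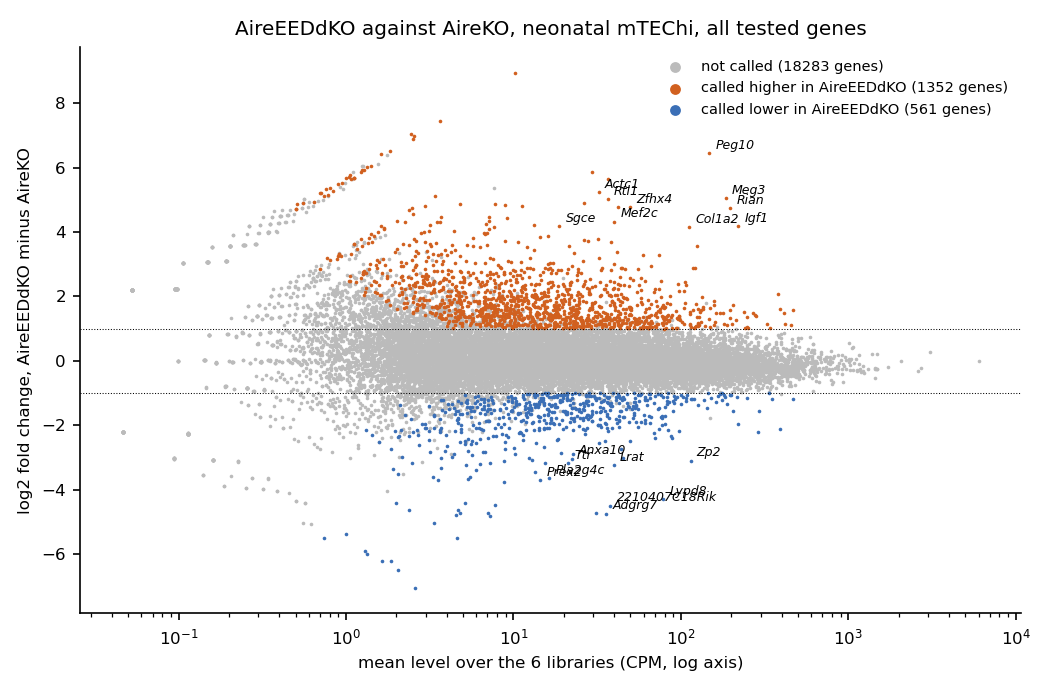
Each point is 1 of 20196 tested genes, with its mean level over the 6 libraries in CPM on a log axis and its log2 fold change, AireEEDdKO minus AireKO, on the y axis. The 1352 genes called higher are orange, the 561 called lower are blue, dotted lines mark a 2-fold change, and 19 genes with the largest changes by the naming rule are labelled.

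The median level of the genes called higher was 5.31 CPM in AireKO and 19.1 CPM in AireEEDdKO, and that of the genes called lower was 25.9 CPM and 8.32 CPM. The call itself sets much of this, and the median over all tested genes in AireKO was 15.7 CPM. Of the higher genes, 456 had under 3 CPM in AireKO and 33 had no count in any AireKO library, while 8 of the lower genes had no count in any AireEEDdKO library. Among higher genes 1217 of 1352 code for protein, and among lower genes 443 of 561.

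The 10 largest rises by the naming rule went from at most 26.5 CPM in any AireKO library to between 31.2 and 565 CPM in AireEEDdKO. Zfhx4, a zinc-finger homeobox transcription factor of the developing nervous system and muscle (chromosome 3, 5218526 to 5415857), had 3.4, 3.42 and 3.64 CPM in AireKO and 102, 87.7 and 101 CPM in AireEEDdKO. The libraries of each group lay close together, and the change was 4.76 (SE 0.24, adjusted p = 9.8e-12). Mef2c, a transcription factor of muscle, heart and neurons (chromosome 13, 83504034 to 83667080), had 6.79, 1.37 and 3.36 CPM in AireKO and 82.9, 84.2 and 60.5 in AireEEDdKO. The groups were far apart, with a change of 4.32 (SE 0.28, adjusted p = 1.2e-09). Igf1, the insulin-like growth factor of liver and mesenchyme (chromosome 10, 87858265 to 87937042), had 26.5, 21.2 and 21.9 CPM in AireKO and 399, 565 and 282 in AireEEDdKO, a change of 4.17 (SE 0.41, adjusted p = 4.8e-07). Its mean in Ctrl, with Aire and EED, was 121 ± 19.1 CPM (SD, n = 5), which lay between the levels of these groups. Col1a2, a chain of type I collagen (chromosome 6, 4504814 to 4541544), had 15.6, 14.3 and 8.13 CPM in AireKO and 221, 289 and 126 in AireEEDdKO, a change of 4.15 (SE 0.32, adjusted p = 1.3e-08). Actc1, the cardiac alpha-actin (chromosome 2, 114047282 to 114053548), had 5.44, 0.683 and 0.28 CPM in AireKO and 100.4, 54.4 and 33.1 in AireEEDdKO. The AireKO libraries differed more among themselves here, and the change was 5.23 (SE 0.91, adjusted p = 0.00032). Peg10, Meg3, Rtl1, Rian and Sgce, the other 5 of the 10, are imprinted genes and are described with their loci. Mean levels in Ctrl were 4.71 CPM for Zfhx4, 9.3 for Mef2c, 27.1 for Col1a2 and 18.1 for Actc1. Igf1, Zfhx4 and Actc1 overlap transcripts on the other strand, which the counting did not separate.

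The largest falls by the naming rule, of which 9 are given, had no overlap between the groups and single-digit levels in most AireEEDdKO libraries. Adgrg7, an adhesion receptor of the G protein-coupled family (chromosome 16, 56724609 to 56795855), had 63.2, 103 and 40.9 CPM in AireKO and 5.84, 1.15 and 1.27 in AireEEDdKO, a change of -4.74 (SE 0.66, adjusted p = 2.9e-05). Lypd8, a secreted protein that keeps bacteria off the colon epithelium (chromosome 11, 58379043 to 58390728), had 177, 172 and 99.5 CPM in AireKO and 14.6, 4.58 and 4.77 in AireEEDdKO. Every AireEEDdKO library lay far under the lowest AireKO library, and the change was -4.29 (SE 0.47, adjusted p = 2.4e-06). Zp2, a glycoprotein of the egg coat (chromosome 7, 120126772 to 120145291), had 253, 229 and 130.0 CPM in AireKO and 34.4, 25.8 and 13 in AireEEDdKO, a change of -3.10 (SE 0.42, adjusted p = 2e-05). Lrat, which stores retinol as esters (chromosome 3, 82892579 to 82903973), had 76.8, 72.4 and 65 CPM in AireKO and 9.93, 9.17 and 4.45 in AireEEDdKO, a change of -3.24 (SE 0.46, adjusted p = 3.3e-05). The other 5 were the uncharacterised protein-coding gene 2210407C18Rik (-4.50), the Rac exchange factor Prex2 (-3.71), the phospholipase Pla2g4c (-3.65), the thyroxine carrier Ttr (-3.18) and the annexin Anxa10 (-3.04), with adjusted p between 5.7e-06 and 0.0078. Ttr was not called in the 4-day libraries alone (-2.72, adjusted p = 0.086).

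**Figure D2:**
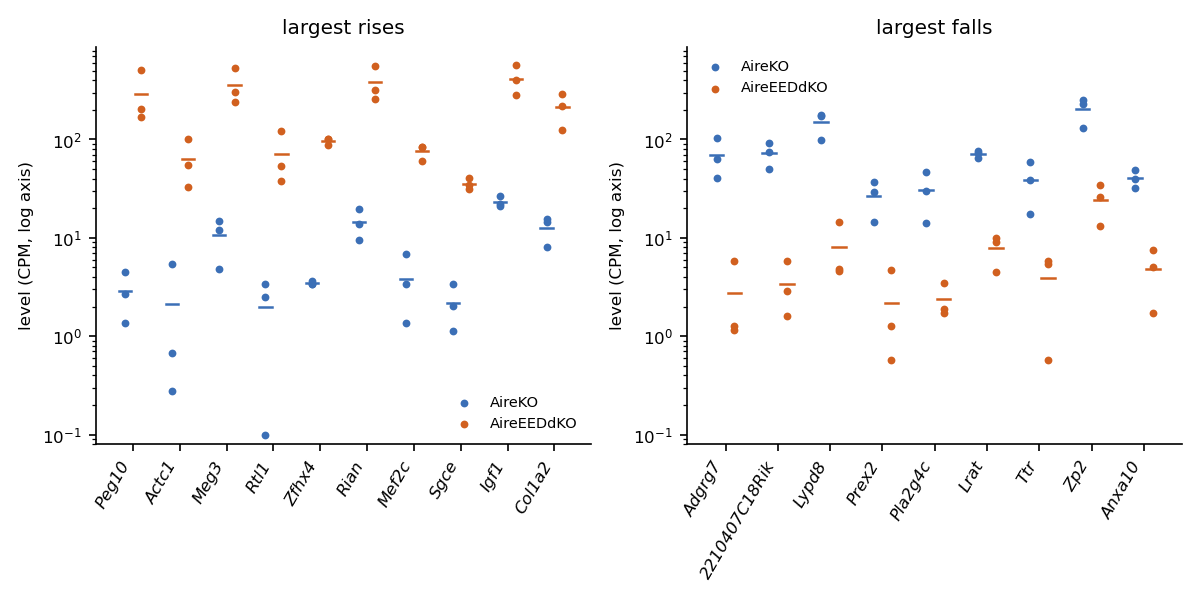
Levels in CPM on a log axis of the 10 largest rises (left) and of 9 of the largest falls (right) in each of 3 AireKO (blue) and 3 AireEEDdKO (orange) libraries, with bars at group means. The groups do not overlap for any of the 19 genes, which the naming rule asks for, and the AireKO library of Rtl1 with 0 counts is drawn at the bottom of the axis.

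Imprinted genes, of which cells express the copy from 1 parent, rose together at 2 loci. At the Meg3 locus on chromosome 12, where Meg3, Rian and Mirg are noncoding RNAs of the maternal copy and Dlk1 and Rtl1 are expressed from the paternal copy, 5 of 7 tested members rose and 0 fell, with a median of 4.73 over the list. Meg3 (chromosome 12, 109541001 to 109571726) had 14.9, 4.78 and 12 CPM in AireKO and 537, 304 and 239.9 in AireEEDdKO, a change of 5.04 (SE 0.38, adjusted p = 1.1e-08). Rian had 19.7, 9.56 and 13.7 CPM and 564, 318 and 258 CPM (4.73, SE 0.40, adjusted p = 6.3e-08). Dlk1, a Notch-like membrane protein of fetal tissues, had 2.72, 0 and 1.4 CPM and 116, 53.9 and 45.8 CPM (5.64, SE 0.69, adjusted p = 6.8e-06). Genes known for expression from the maternal copy and from the paternal copy thus both rose. The counts do not tell the copies apart, so which copy gave the added reads is not known. Replicate 1 was the highest AireEEDdKO library for Meg3, Rian and Dlk1. Rtl1, a retrotransposon-derived gene, changed by 5.02 and the microRNA host Mirg by 3.73. Rtl1 lies antisense to microRNA genes of this locus, and its reads cannot be told apart from theirs. Members that had no count in any of the 6 libraries were Dio3 and Dio3os.

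At the Peg10 locus on chromosome 6, 4 of 8 tested members rose and 0 fell. Peg10, a retrotransposon-derived gene required for the placenta (chromosome 6, 4747306 to 4760517), had 2.72, 1.37 and 4.48 CPM in AireKO and 503, 206 and 169 CPM in AireEEDdKO, a change of 6.45 (SE 0.98, adjusted p = 7.7e-05). Peg10 had a mean of 26.9 ± 15 CPM in Ctrl (SD, n = 5). Its neighbour Sgce, a sarcoglycan that starts next to Peg10 on the other strand, had 3.4, 2.05 and 1.12 CPM and 40.9, 34.4 and 31.2 CPM (4.18, SE 0.47, adjusted p = 2.8e-06). Both genes were far apart between the groups. Asb4, a ubiquitin ligase adaptor, had no count in AireKO and 7.01, 8.59 and 6.36 CPM in AireEEDdKO, at least 15.4-fold higher against the floor of 3 counts over the group. Ppp1r9a, which binds actin in neurons, had 14.3, 19.1 and 14.9 CPM and 44.4, 42.4 and 48.7 CPM (1.51, SE 0.38, adjusted p = 0.0077). Of 55 other imprinted genes tested, 12 rose and 1 fell, with a median of 0.33. Among them Ndn, a suppressor of growth in neurons, rose by 1.91, the tetraspanin Cd81 by 1.75 and Mest by 1.73, while Rasgrf1, a Ras exchange factor, had 80.2, 107 and 86.3 CPM and 33.9, 30.4 and 11.1 CPM and fell.

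Transcription factors of development rose at low levels. Of 39 Hox genes, which give cells their position along the body, 25 were tested, 6 rose and 0 fell. Their median log2 fold change was 1.66, and 1.27 with the 6 genes at 0 in a group set to their bounds. By cluster, 1 of 7 tested HoxA genes, 2 of 8 HoxB genes, 3 of 8 HoxC genes and 0 of 2 HoxD genes rose. Hoxc4 (chromosome 15, 103018934 to 103036852) had 2.72, 2.05 and 3.08 CPM in AireKO and 19.3, 14.3 and 12.4 in AireEEDdKO (2.46, SE 0.46, adjusted p = 0.00067). Hoxc5 had 2.04, 4.78 and 2.8 CPM and 19.9, 24.6 and 8.27 CPM (2.44, SE 0.54, adjusted p = 0.0028). The HoxC genes together summed to 17.7 to 23.9 CPM in AireKO and 46.1 to 89.9 in AireEEDdKO, the highest of the 4 clusters. HoxD summed to 2.72 to 11.6 and 2.86 to 12.3 CPM, which overlapped. Hoxb4, Hoxc6, Hoxa9 and Hoxb9 were also called, and each lost the call without AireKO replicate 3 and without AireEEDdKO replicate 1. The count of Hox genes called was 2 without AireKO replicate 3 and 2 without AireEEDdKO replicate 1. In cells with Aire, 4 of the 25 Hox genes were higher and 3 lower in EEDcKO against Ctrl, beside 8.48% and 5.4% of all tested genes. Mean levels in Ctrl were 3.13 CPM for Hoxc4, 5.23 for Hoxc5, 3.15 for Hoxb4, 5.95 for Hoxc6, 3.81 for Hoxa9 and 16.9 for Hoxb9, each above the AireKO mean. The AireEEDdKO means of Hoxb4 (2.59) and Hoxb9 (4.61) stayed under Ctrl, and those of the others lay above it.

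Of 65 other homeobox factors tested, 17 rose and 0 fell, with a median of 1.10, and 0.87 with 8 genes at their bounds. Pax3, a factor of neural crest and muscle progenitors, had 1.36, 0 and 0.841 CPM in AireKO and 21, 20.6 and 11.5 in AireEEDdKO (4.43, SE 0.64, adjusted p = 4.2e-05). Msx1, a factor of craniofacial mesenchyme, had 0, 0 and 0.56 CPM and 6.42, 5.16 and 7.0 CPM, a ratio of 20.7 with a counting interval from 5.38 to 176. Both genes were at or near 0 in every AireKO library, and the groups did not overlap. Pax3 had a mean of 7.31 ± 2.13 CPM in Ctrl (SD, n = 5). Prrx1, a factor of limb mesenchyme, had 1.36, 0 and 0.56 CPM and 4.67, 12 and 35 CPM (4.84, SE 0.76, adjusted p = 0.0001), where AireEEDdKO replicate 3 stood highest. The count of homeobox genes called was 11 without AireKO replicate 2 and 10 without AireKO replicate 3 and 7 in fits of the 6 libraries alone, with and without the replicate block. Of 36 T-box, Gata and Sox factors, 8 rose and 0 fell, among them Sox11, a factor of neural progenitors, with 6.12, 10.9 and 8.13 CPM and 67.7, 39.5 and 40.4 CPM (2.54, SE 0.38, adjusted p = 6.9e-05). Sox5, a factor of cartilage and neurons, changed by 2.77, and Gata3, a factor of T cells and skin, by 1.51. Of 30 Ebf, bHLH and Zic factors, 9 rose (5 in fits of the 6 libraries alone, with and without the replicate block) and 2 fell. Zic1, a factor of cerebellum, had 0.679, 0.683 and 0.841 CPM and 13.4, 22.9 and 7.32 CPM (4.15, SE 0.71, adjusted p = 0.00029), and Ebf4, an early B-cell factor relative, 4.08, 4.1 and 4.48 CPM and 20.4, 14.9 and 12.7 CPM (1.88, SE 0.33, adjusted p = 0.00031).

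Secreted signals and matrix rose beside these factors. Of 51 Wnt pathway genes tested, 15 rose and 0 fell, with a median of 1.03. Among ligands, Wnt5a, which acts mostly without beta-catenin, had 4.08, 2.73 and 3.64 CPM in AireKO and 30.9, 30.9 and 26.4 in AireEEDdKO (3.04, SE 0.34, adjusted p = 2.9e-06), and Wnt11 had 12.9, 8.2 and 12 CPM and 53.1, 40.1 and 30.2 CPM (1.86, SE 0.33, adjusted p = 0.0004). Among receptors, Fzd3 had 20.4, 14.3 and 22.4 CPM and 65.4, 59 and 101 CPM (1.96, SE 0.27, adjusted p = 3.1e-05). The inhibitors Dkk2, which binds Wnt co-receptors, and Nkd1, a target gene that dampens the pathway, rose by 2.32 and 2.40, so ligands, a receptor and inhibitors all rose. Of 19 Notch pathway genes 4 rose and 0 fell, and the count was 2 without AireKO replicate 2, 1 without AireEEDdKO replicate 1 and 2 without AireEEDdKO replicate 3. Heyl, a transcriptional target of Notch, had 23.1, 6.15 and 12 CPM and 96.9, 46.4 and 67.1 CPM (2.37, SE 0.37, adjusted p = 0.00012). Of 43 collagen genes 15 rose and 0 fell, with a median of 0.92. Col5a1, which regulates fibril width, had 142, 124 and 152 CPM and 451, 342 and 287 CPM (1.36, SE 0.15, adjusted p = 2.5e-06), and Col9a2 of cartilage had 7.47, 8.2 and 5.32 CPM and 46.1, 33.8 and 29 CPM (2.42, SE 0.31, adjusted p = 1e-05). The basement membrane chain Col18a1 rose by 2.33 and the microfibril chain Col6a1 by 2.36.

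Of 13 mesenchyme markers, 5 of which are collagens, 4 rose and 0 fell. Of these 4, Col1a2, Col5a2 and Col3a1 are among the collagens already counted, so Pdgfra was the other marker called, and the list summed to 685 to 902 CPM in AireKO and 893 to 1084 in AireEEDdKO. Pdgfra, a growth factor receptor of fibroblasts, had no count in AireKO and 2.92, 2.86 and 8.91 CPM in AireEEDdKO, at least 12.5-fold higher against the floor of 3 counts over the group, and was not called without AireKO replicate 3 or without AireEEDdKO replicate 3. Col3a1 had 0, 1.37 and 0 CPM and 7.59, 1.72 and 18.1 CPM and was not called without the same libraries, and Col5a2 was not called without AireKO replicate 1 (1.02). The list then held 2 called genes without AireKO replicate 3 and 2 without AireEEDdKO replicate 3. In fits of the 6 libraries alone, with and without the replicate block, 2 markers were higher and 1 lower, and Col3a1 and Pdgfra did not pass the filter on low counts there. Dcn, Lum and Pdgfrb, which are high in fibroblasts, had differences of 0.36, 0.66 and -0.07 that did not pass (adjusted p = 0.25, 0.13 and 0.93). Vim was lower, 451, 429.6 and 309.6 CPM in AireKO and 232, 183 and 237 in AireEEDdKO, by less than 2-fold (-0.86, adjusted p = 0.0035). The part of mesenchymal cells in the rise of collagens and mesenchymal factors was not tested.

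PRC2 genes other than Eed also changed. Ezh2, the catalytic subunit, had 102, 134 and 117 CPM in AireKO and 38.5, 41.2 and 48.4 CPM in AireEEDdKO (-1.45, SE 0.17, adjusted p = 5.7e-06), and Aebp2, a cofactor, 673, 762 and 524 CPM and 300.1, 304 and 262 CPM (-1.18, SE 0.15, adjusted p = 1.1e-05). Rbbp7 had 249, 277 and 180.2 CPM and 112, 122 and 116 CPM, a change of -1.004 (edgeR adjusted p = 5.6e-05) that lies at the 2-fold limit and fell under it without AireKO replicate 1 (-0.96), AireKO replicate 2 (-0.87) or AireEEDdKO replicate 1 (-0.98), and in the 6 libraries alone with (-0.96) and without (-0.99) the replicate block. Epop, a factor that ties PRC2 to elongin, rose from 3.4, 0.683 and 1.96 CPM to 19.3, 13.2 and 8.91 CPM (2.72, SE 0.54, adjusted p = 0.0012). Suz12 was 132, 139 and 125 CPM in AireKO and 79.4, 80.8 and 108 in AireEEDdKO, a difference of -0.55 under 2-fold. Ezh1, Jarid2, Mtf2, Phf1, Phf19, Lcor and Rbbp4 were not called, with differences from -0.47 (Rbbp4, adjusted p = 0.0058, under 2-fold) to 0.43 (Phf1). Of 21 PRC1 subunits tested, 1 rose, Bmi1, with 32.6, 28.7 and 31.4 CPM and 64.2, 78.5 and 86.5 CPM (1.31, SE 0.20, adjusted p = 7.9e-05). Of 10 CDK inhibitors and D cyclins 2 rose. Cdkn1c, the imprinted inhibitor p57, had 70.7, 60.8 and 72.3 CPM in AireKO and 307, 247 and 195 CPM in AireEEDdKO (1.87, SE 0.28, adjusted p = 8e-05), and the groups were far apart. Cdkn2a, a classic Polycomb target, had 3.4, 3.42 and 5.32 CPM and 9.93, 10.3 and 11.1 CPM, a change of 1.29 whose call was lost in 5 of 6 fits that left out 1 library (1.18 to 1.32), all but the fit without AireKO replicate 3.

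Most genes of cell division fell. Of 35 tested, 30 fell and 0 rose, with a median of -1.64, and every member had a negative log2 fold change. Their summed level was 3230 to 3595 CPM in AireKO and 670 to 1430 CPM in AireEEDdKO. AireEEDdKO replicate 3 was the highest of its group, and still far under the lowest AireKO library. Cdk1, the kinase that drives mitosis (chromosome 10, 69335146 to 69352938), had 135, 168 and 145 CPM in AireKO and 22.2, 16 and 43.6 CPM in AireEEDdKO (-2.39, SE 0.28, adjusted p = 5.2e-06). Mki67, the proliferation marker, had 571, 687 and 657 CPM and 98.7, 92.2 and 239 CPM (-2.13, SE 0.29, adjusted p = 2.3e-05). Top2a, a topoisomerase of dividing cells, had 437, 524 and 464 CPM and 90.5, 51.6 and 160.0 CPM (-2.21, SE 0.31, adjusted p = 3.3e-05), and the kinesin Kif11 and the centromere protein Cenpf changed by -2.16 and -2.18. Ccna2 and the spindle factor Tpx2 changed by -2.25 and -2.33. The members that were not called were Pcna (-0.57), Birc5 (-0.79), E2f1 (-0.82), Mcm2 (-0.92) and Mcm7 (-0.84).

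Promoters of these genes are known for a CCAAT box and for a cell cycle homology region (CHR), sequences bound by NF-Y and by the DREAM complex. RefSeq windows of 300 bases, from 250 before to 50 after the start on GRCm38.p6, were found for 24 of the 30 genes that fell. On either strand CCAAT was present in 22 of 24 windows (91.7%) and TTTGAA, the common form of the CHR, in 15 of 24 (62.5%), and 15 held both. Of 13509 windows of tested genes, 37.9% held CCAAT, 13% TTTGAA and 5.26% both. The 250 bases before the start are shown for 5 genes with large falls, chosen with their motifs known as 4 that hold both motifs and Cenpf, which holds CCAAT alone, 5′ to 3′ on the strand of the gene, with each CCAAT and also each TTTGAA and their reverse complements in capitals. The windows are chr10:69352913-69353162, minus strand for Cdk1, chr11:99024190-99024439, minus strand for Top2a, chr7:135716380-135716629, minus strand for Mki67, chr19:37376132-37376381, plus strand for Kif11 and chr1:189688087-189688336, minus strand for Cenpf.
Cdk1: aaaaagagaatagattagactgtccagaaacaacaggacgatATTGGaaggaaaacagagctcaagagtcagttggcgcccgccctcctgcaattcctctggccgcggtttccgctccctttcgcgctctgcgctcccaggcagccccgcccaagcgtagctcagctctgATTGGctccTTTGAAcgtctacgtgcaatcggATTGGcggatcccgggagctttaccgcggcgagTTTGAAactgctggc
Top2a: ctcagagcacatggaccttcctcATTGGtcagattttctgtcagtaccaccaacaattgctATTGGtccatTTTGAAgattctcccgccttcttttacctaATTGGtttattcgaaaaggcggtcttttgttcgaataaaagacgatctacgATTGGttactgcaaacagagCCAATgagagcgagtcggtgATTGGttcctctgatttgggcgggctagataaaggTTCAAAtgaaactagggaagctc
Mki67: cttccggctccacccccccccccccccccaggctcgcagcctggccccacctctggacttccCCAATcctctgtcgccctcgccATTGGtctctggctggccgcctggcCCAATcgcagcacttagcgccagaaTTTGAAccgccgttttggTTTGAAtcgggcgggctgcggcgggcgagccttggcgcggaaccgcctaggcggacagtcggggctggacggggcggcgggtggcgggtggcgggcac
Kif11: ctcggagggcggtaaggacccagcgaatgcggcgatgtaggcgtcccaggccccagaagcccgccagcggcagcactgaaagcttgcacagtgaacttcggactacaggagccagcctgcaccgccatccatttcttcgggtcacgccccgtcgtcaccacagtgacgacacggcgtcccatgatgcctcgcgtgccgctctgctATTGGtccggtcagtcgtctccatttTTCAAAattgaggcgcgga
Cenpf: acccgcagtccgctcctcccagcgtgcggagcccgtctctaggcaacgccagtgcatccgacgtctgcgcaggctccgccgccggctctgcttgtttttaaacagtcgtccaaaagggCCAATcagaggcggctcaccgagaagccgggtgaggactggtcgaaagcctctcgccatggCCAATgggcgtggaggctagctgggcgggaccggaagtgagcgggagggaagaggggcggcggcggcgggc
In these 250 bases CCAAT occurs 3 times in Cdk1, 6 times in Top2a, 3 times in Mki67, 1 time in Kif11 and 2 times in Cenpf, and TTTGAA occurs 2, 2, 2, 1 and 0 times. A match of letters is a description of the window only.

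Mimetic programs moved in different directions. Of 36 muscle genes tested, 17 rose and 0 fell, with a median of 1.31. Besides Mef2c and Actc1, the intermediate filament gene Des had 53.7, 17.8 and 29.1 CPM in AireKO and 211, 167 and 161 CPM in AireEEDdKO (2.44, SE 0.36, adjusted p = 6.7e-05). The skeletal calcium channel Ryr1 had 8.15, 1.37 and 8.13 CPM and 76.5, 49.8 and 50.9 CPM (3.19, SE 0.58, adjusted p = 0.00045), and the cardiac channel Ryr2 13.6, 23.9 and 15.1 CPM and 50.8, 63 and 58.5 CPM (1.74, SE 0.22, adjusted p = 9.9e-06). The list's summed level, 5589 to 8149 CPM in AireKO and 5033 to 9123 in AireEEDdKO, overlapped, while single members rose. The number called was 10 without AireKO replicate 1, 8 without AireKO replicate 2, 10 without AireKO replicate 3 and 8 without AireEEDdKO replicate 1. Enterocyte genes went the other way, with 9 of 29 lower and 0 higher, and summed levels of 1304 to 1912 and 832 to 1041 CPM. Besides Lypd8, Mttp, which loads lipid onto lipoproteins, had 111, 101 and 75.1 CPM and 27.4, 28.1 and 23.9 CPM (-1.85, SE 0.26, adjusted p = 2.7e-05), and the brush border protein Vil1 had 38.7, 40.3 and 30.5 CPM and 14, 9.74 and 14.3 CPM (-1.49, SE 0.24, adjusted p = 0.00015). Keratinocyte genes fell in 8 of 23 cases and rose in 0, and summed to 1235 to 1275 and 653 to 907 CPM. Dmkn, a secreted epidermal protein, had 55, 40.3 and 62.2 CPM and 10.5, 16 and 13.4 CPM (-1.99, SE 0.40, adjusted p = 0.0013), and the desmosomal cadherin Dsc1 had 10.2, 9.56 and 13.4 CPM and 0, 1.15 and 1.59 CPM (-3.40, SE 0.77, adjusted p = 0.0035). The keratinocyte count was 4 without AireKO replicate 3 and 5 without AireEEDdKO replicate 3. Liver plasma proteins fell in 3 of 17 cases, with Apoc3 at 14.3, 9.56 and 7.01 CPM and 1.75, 1.15 and 1.91 CPM (-2.57, SE 0.51, adjusted p = 0.0011).

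Other mimetic lists held few calls. Of 16 tuft cell genes 1 rose, Dclk1, a kinase, with 38.1, 26 and 24.7 CPM in AireKO and 272, 206 and 166 CPM in AireEEDdKO (2.88, SE 0.27, adjusted p = 2.5e-07). Of 20 ciliated cell genes 1 was called (Ccno, 2.28), and of 11 microfold and 10 ionocyte genes 0 were. All 10 ionocyte genes still had positive log2 fold changes, with a median of 0.81, and 0.65 with 1 gene at its bound. The ionocyte genes summed to 175 to 224 CPM in AireKO and 269 to 328 in AireEEDdKO, which did not overlap. Positive changes were seen for 16 of the 20 ciliated and 4 of the 11 microfold genes, with medians of 0.53 and -0.06. Of 22 endocrine genes 2 were higher (4 in fits of the 6 libraries alone) and 1 lower. Calca, the calcitonin gene, had 34.7, 55.3 and 18.2 CPM and 242, 206 and 84.6 CPM but was not called without AireKO replicate 3 (1.96), and no endocrine gene was called in that fit. The higher count was 1 without AireKO replicate 2, AireEEDdKO replicate 1 or AireEEDdKO replicate 2, and the lower count was 0 in every fit that left out 1 library but that without AireEEDdKO replicate 2. Of 15 goblet genes 2 were higher and 1 lower, and the higher count was 0 without AireKO replicate 2 or AireEEDdKO replicate 3 and 1 without AireKO replicate 1 or 3. Muc2, the gut mucin, rested on AireKO replicate 1 alone, with 179, 2.05 and 0.56 CPM in AireKO and 0.584, 3.44 and 2.23 in AireEEDdKO, and its difference of -4.73 turned to 1.02 without that library and was not called without AireEEDdKO replicate 1 (-4.40) or 3 (-4.79). Of 18 germline genes Zp2 fell and Tdrd1, a piRNA pathway protein, rose by 1.50.

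No gene of MHC class II presentation was called. Of 13 genes of MHC class II presentation, 16 of costimulation and NF-kB, and 10 thymocyte, 11 myeloid, 5 B cell and 3 erythroid markers, 0 were called. Ltbr, a receptor of NF-kB signalling, differed by 0.82 (edgeR adjusted p = 0.027), under 2-fold. MHC class II genes had log2 differences from -0.49 to 0.45 and summed to 4314 to 7224 CPM in AireKO and 4041 to 7146 in AireEEDdKO. At an adjusted p under 0.05 alone, Epcam and Krt5 of the mTEC markers differed, Krt5 with 224, 134 and 179.6 CPM and 235, 264 and 359 CPM (0.68, SE 0.19, adjusted p = 0.015). Of 31 interferon-stimulated genes 2 were lower, the deconjugating enzyme Usp18 with 104, 165 and 117 CPM and 50.8, 52.1 and 65.9 CPM (-1.18, SE 0.16, adjusted p = 2.6e-05), which was under 2-fold without AireKO replicate 2 (-0.96), and Ifit1 (-1.02), under 2-fold without AireKO replicate 1 (-0.81), AireEEDdKO replicate 2 (-0.91) or AireEEDdKO replicate 3 (-0.96) and with the replicate block. Of 13 thymic chemokines tested 2 were higher and 2 lower, with 1 or 2 in each direction when 1 library was left out. Ccl21a, which draws T cells into the medulla, had 8.83, 6.15 and 7.29 CPM and 19.3, 18.9 and 16.5 CPM (1.29, SE 0.22, adjusted p = 0.00026), and Ccl2, which draws monocytes, 21.1, 6.83 and 17.1 CPM and 2.92, 3.44 and 1.91 CPM (-2.52, SE 0.63, adjusted p = 0.0078). Of 12 genes of cortical epithelium 1 rose, the peptidase Enpep, with 12.2, 6.15 and 9.53 CPM and 90.5, 64.7 and 46.5 CPM (2.82, SE 0.45, adjusted p = 0.00012). Enpep encodes Ly51, the surface marker whose absence the sort required, and the part of the gate in its rise was not tested. Of 14 basal mTEC genes 2 were higher and 1 lower. Of 7 endothelial markers 1 was called (Egfl7, 1.49, adjusted p = 0.049), and the call was lost without AireKO replicate 1, AireKO replicate 2, AireEEDdKO replicate 1 or AireEEDdKO replicate 3 (1.22 to 1.46).

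Gene families taken by their symbols differed in how many members were called. Potassium channels were higher in 13 of 73 cases and lower in 0, led by Kcna1 with 10.9, 14.3 and 10.1 CPM and 59, 64.2 and 55.4 CPM (2.36, SE 0.31, adjusted p = 1.3e-05). Neurotransmitter receptors were higher in 7 and lower in 3 of 45, of which the receptor subunit Chrnb1 had 23.1, 28 and 22.4 CPM and 89.9, 86.5 and 54.4 CPM (1.65, SE 0.23, adjusted p = 3.1e-05), and the count of higher genes was 4 without AireKO replicate 3 and 3 without AireEEDdKO replicate 1, while that of lower genes was 0 to 2 without any 1 library. Chrng, 1 of the 7 higher receptors, was also counted among the muscle genes, so these 2 lists are not separate. Serpins were higher in 8 and lower in 2 of 39, with 5 higher without AireKO replicate 3 and 5 without AireEEDdKO replicate 1. Protocadherins were higher in 4 and lower in 1 of 48, and 2 were higher without AireKO replicate 2 or without AireEEDdKO replicate 1. Among keratins 1 was higher and 7 lower of 41, a count of lower genes that was 1 to 4 without any 1 library and lowest without AireEEDdKO replicate 3. Solute carriers, with 27 higher and 5 lower of 341, kallikreins, with 3 higher and 0 lower of 23, and cytochrome P450 genes, with 1 higher and 0 lower of 30, complete the families. Only 5 of the 23 kallikreins had a positive log2 fold change, and their median was -0.68, and -0.32 with 5 genes at their bounds. Their summed level was 86.1 to 124 CPM in AireKO and 146 to 180 in AireEEDdKO. The shares can be read against 6.69% higher and 2.78% lower over all tested genes.

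**Figure D3:**
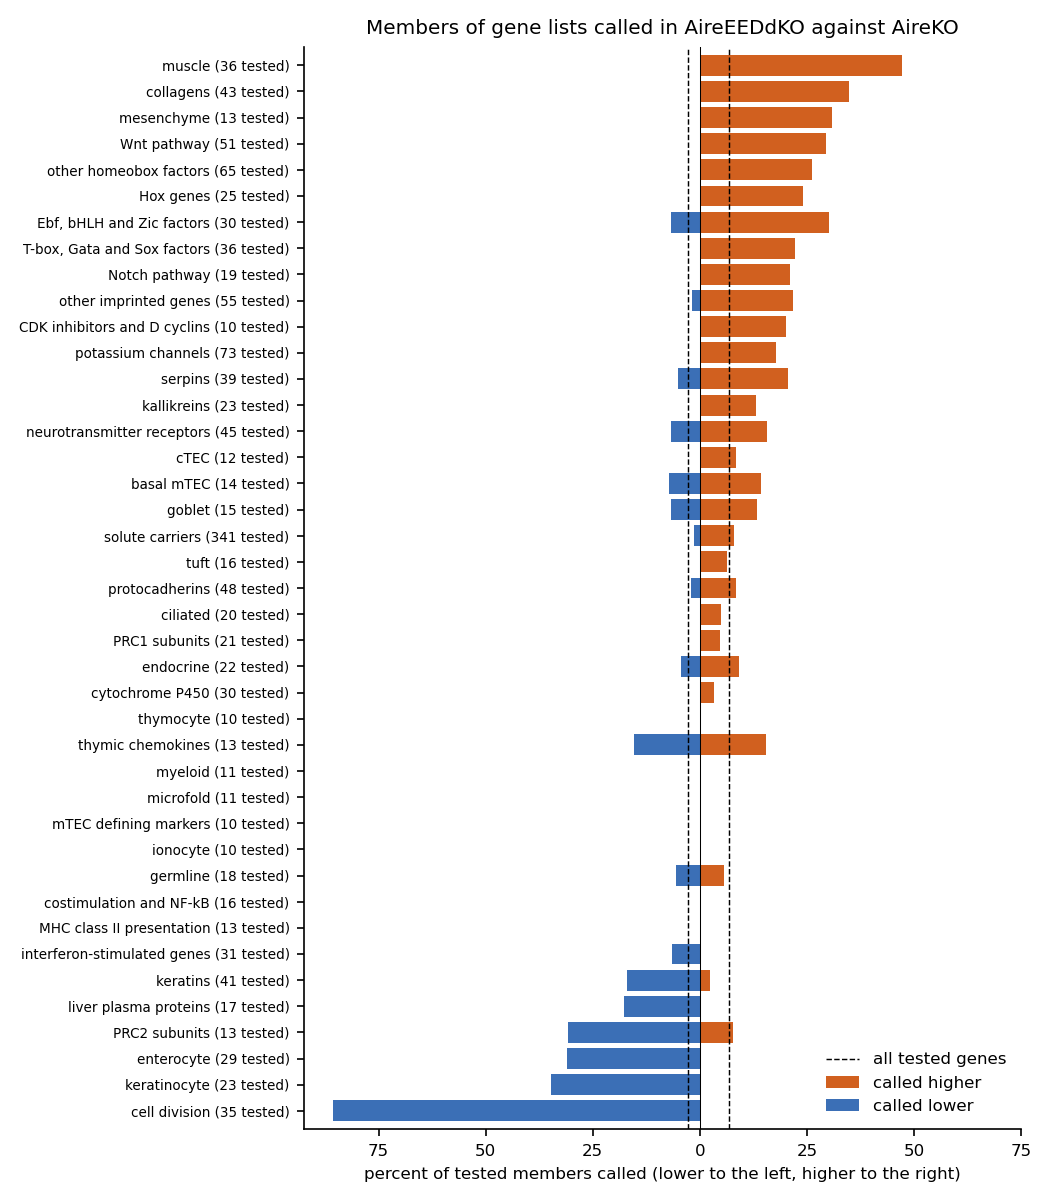
Percent of tested members of each gene list that were called higher (orange, to the right) or lower (blue, to the left) in AireEEDdKO, for lists with 10 or more tested members, with dashed lines at the shares of all tested genes, 6.69% and 2.78%. Cell division stands at the bottom with 30 of 35 members lower, and muscle at the top with 17 of 36 higher.

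Adult libraries, none of which enter the comparison of newborn cells, were used to group the genes by what Aire and maturation do to them. Genes lower in adult AireKO (n = 4) than in WT (n = 7) mTEChi were taken as genes that Aire induces, and 3337 of these 3534 were tested in newborn cells. In AireEEDdKO against AireKO 586 of them were higher (17.6%) and 108 lower (3.24%), with a median log2 fold change of 0.58, and 0.47 with 412 genes at their bounds, beside 0.03 for all tested genes. They make up 16.5% of all tested genes, 43.3% of those called higher and 19.3% of those called lower. The set was chosen for low levels in AireKO, which is also the baseline here. Members near 0 in that baseline can rise but can hardly be called lower, so part of this split is set by the choice. In cells with Aire, in EEDcKO against Ctrl 12.6% were higher and 11.3% lower, with a median of -0.02, beside 8.48% and 5.4% of all tested genes. The baseline there has Aire, so the lower shares of the 2 comparisons are not alike in this respect. Of the 866 tested genes that were higher in adult AireKO, 25 were higher (2.89%) and 81 lower (9.35%), beside 6.69% and 2.78% of all tested genes. This set was chosen for high levels in AireKO, again the baseline here, so part of its split is set by the choice too. Leaving out AireKO replicate 3 gave 16 higher, and 51 were lower without AireKO replicate 2 and 53 without AireEEDdKO replicate 3.

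Genes higher in adult WT mTEClo (n = 8) than mTEChi, which go down as mTECs mature, mostly moved up where they were called. Of 2134 tested, 427 were higher (20.0%) and 11 lower (0.515%), with a median of 0.59, and 19 were lower without AireEEDdKO replicate 3. Genes higher in adult mTEChi than mTEClo were called in both directions, with 323 of 4331 higher (7.46%) and 324 lower (7.48%) and a median of 0.00. The share that was higher lies near the 6.69% of all tested genes. The set makes up 21.4% of all tested genes, 23.9% of those called higher and 57.8% of those called lower. The 542 genes that are both induced by Aire and higher in mTEClo were called higher in 188 cases (34.7%) and lower in 1. These genes too were chosen for low levels without Aire, which limits how many can be called lower. Of 15267 genes in neither set 3.45% were higher. The genes that passed the filter on low counts include some that passed only through the group where they are high.

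**Figure D4:**
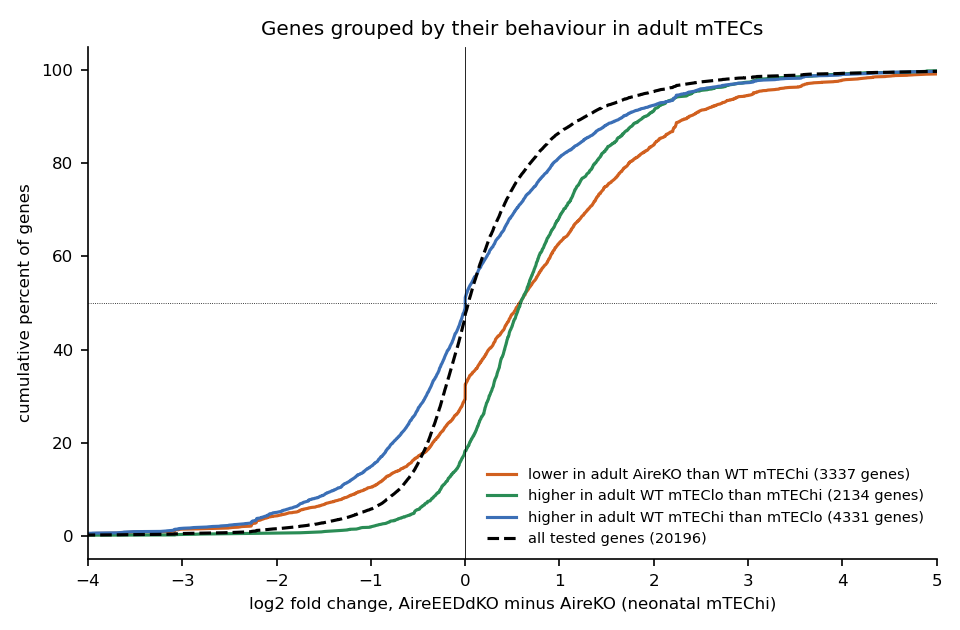
Cumulative percent of genes (y axis) against log2 fold change, AireEEDdKO minus AireKO in newborn mTEChi (x axis), for 3 sets defined in adult libraries and for all 20196 tested genes (dashed). The curves of the Aire-induced set (median 0.58) and the mTEClo set (0.59) lie to the right of all genes (0.03), and the median of the mTEChi set is 0.00.

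The effect of EED loss was set beside its effect in cells with Aire, which comes from other libraries. Of the 1352 genes higher without Aire, 596 were also called higher in EEDcKO against Ctrl, 6 were called lower there, and the median change there was 0.94. Of the 561 lower genes 224 were also lower, 0 were higher, and the median was -0.91. Over all tested genes 8.48% were called higher and 5.4% lower in EEDcKO against Ctrl. The difference between both effects was tested as an interaction in the same fit, and 318 genes passed at an adjusted p under 0.05 (1.57%). Over these 318 genes the difference was positive for 174 and negative for 144. They include 123 of the genes called higher and 31 of those called lower without Aire, whose direction is largely set by that call, since the contrast is part of the interaction, and 164 genes that were not called. Where a gene passed in 1 setting and not in the other, only this test shows a difference. The libraries with Aire span 1 to 6 days of age and those without Aire 4 to 6 days, so age and Aire cannot be fully told apart in it.

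Rian rose by 4.73 without and 1.53 with Aire, a difference of 3.20 (SE 0.50, edgeR adjusted p = 0.0032). Dlk1 rose by 5.64 and 2.07 (difference 3.57, edgeR adjusted p = 0.039). At Meg3 itself the changes were 5.04 and 3.27, and the difference did not pass (edgeR adjusted p = 0.062). Igf1 changed by 4.17 without and 1.03 with Aire, with a mean of 250.3 ± 91.3 CPM (SD, n = 3) in EEDcKO, and the difference of 3.14 (edgeR adjusted p = 0.0038) stands beside a level in AireKO that was under that of Ctrl. Mef2c changed by 4.32 and 1.66 (difference 2.67, edgeR adjusted p = 0.0016). Ryr2 rose by 1.74 without Aire and was -0.51 with it (difference 2.25, edgeR adjusted p = 0.00074), opposite signs. Zfhx4, in contrast, changed by 4.76 and 4.13, and the difference of 0.63 (SE 0.34) did not pass. In the cell division list Cdk1 changed by -2.39 and -0.67 (difference -1.72, edgeR adjusted p = 0.025), 9 of 35 members passed the interaction test, and 3 were called lower in EEDcKO against 30 in AireEEDdKO. Interferon-stimulated Usp18 fell without Aire and was 0.18 with it (difference -1.36, edgeR adjusted p = 0.0031). Enterocyte and keratinocyte genes were also called lower with Aire, with 11 of 29 and 10 of 23 called lower in EEDcKO, and 1 member of each list passed the interaction test. The list counts with Aire can be read against 8.48% higher and 5.4% lower over all tested genes. Muscle genes were called higher in 17 of 36 cases without and 5 of 36 with Aire, and 4 passed the interaction test, so for most members a difference between the settings was not shown.

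**Figure D5:**
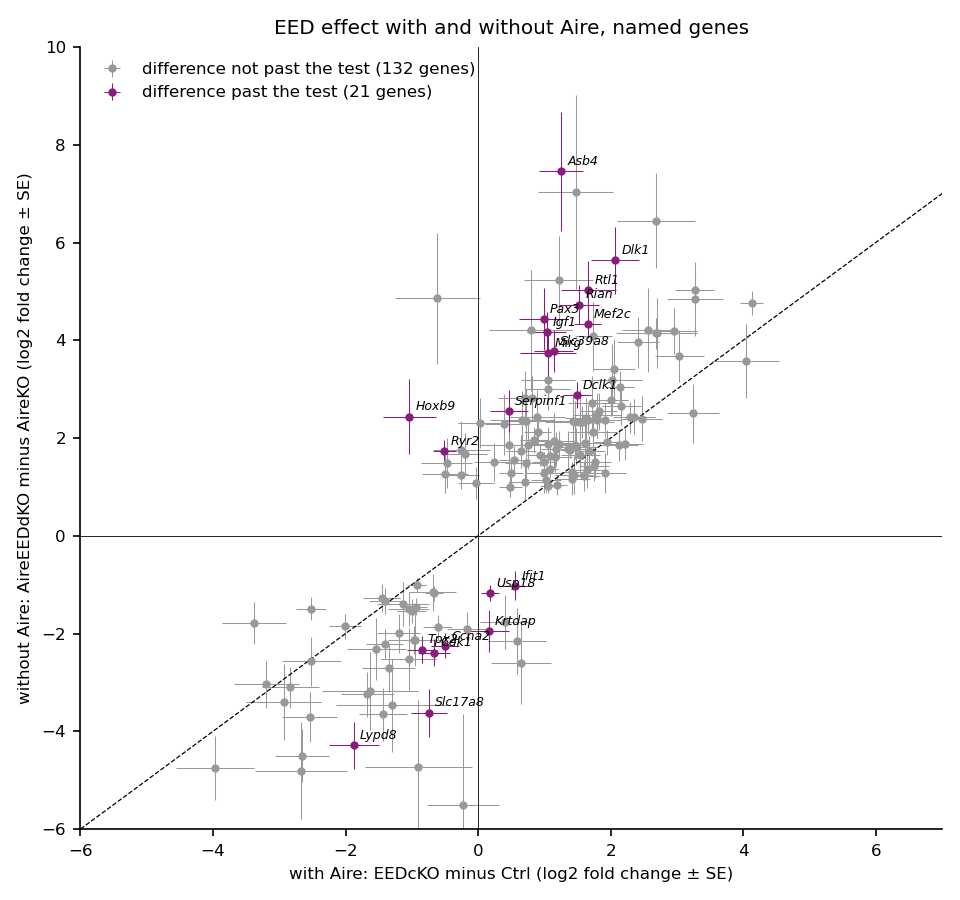
Log2 fold change ± SE of 153 named and called genes on EED loss with Aire (EEDcKO minus Ctrl, x axis) and without Aire (AireEEDdKO minus AireKO, y axis), with the dashed line where both are equal. The 21 genes whose difference passed the interaction test are purple and labelled. All genes shown were chosen by their call on the y axis, so their distance from 0 there is set by that choice.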

How the data were processed

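Bulk RNA of sorted mTECs was sequenced by the authors from full-length libraries. Per the labels and the study's methods, reads were trimmed with fastp 0.20.0, mapped to mm10 (GRCm38) with STAR 2.7.3a, filtered with SAMtools 1.9, freed of duplicates with Picard 2.21.1 and counted per gene regardless of strand with HTSeq 0.11.2. The authors deposited raw counts per gene, with no normalization, for 55471 genes. Overlapping genes on opposite strands cannot be told apart in them. The members and the gene lists were chosen with earlier results of these data known.

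Counts of all 24 newborn libraries entered 1 fit in edgeR 4.0.16 (R 4.3.3, limma 3.58.1) with a mean per group, TMM scaling and the filterByExpr filter, which kept 20196 genes. The contrast AireEEDdKO minus AireKO was tested by edgeR's quasi-likelihood method, with Benjamini-Hochberg adjustment over all tested genes. Genes were called at a 2-fold or larger change with adjusted p below 0.05. The SE of a log2 fold change is its size over the root of F, and the fitted changes use a prior count of 0.125. The biological coefficient of variation was 19.8%. Genes at 0 in a group were given as bounds against a floor of 3 counts over the group, and ratios resting on 1 to 3 counts with exact counting intervals, which cover counting error only. The difference between the effects of EED loss without and with Aire was an interaction contrast in the same fit. The fit was tested on simulated data.

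Named are Aire, Eed and the other PRC2 subunits, the 10 largest rises and falls among called genes that did not overlap, moved alike in every pair, reached 10 CPM on average where higher and had over 3 counts on average where lower, and up to 6 called members of each list by the smallest p. Other genes are named where a count is small or a list's uncalled members are described, chosen after their values were seen. A few genes that the rule names are not reported here. Same-numbered libraries share their labelled age and sex, and their deviations from the group means correlated by 0.108, 0.143 and 0.213, against -0.133 to -0.0297 for other pairs. Deviations sum to 0 within a group, so values above 0 for same numbers push the others under 0. Shared age, sex and depth cannot be told apart here from a pairing of samples. The main fit held no replicate block, which was an alternative. Nothing says whether the libraries come from separate litters, so p-values measure only the spread between libraries within groups. That spread was estimated over all 24 newborn libraries and not from the 6 compared libraries alone.

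Adult sets came from separate edgeR fits of 23 adult libraries at the same thresholds. Alternatives were DESeq2 1.42.0, other scalings and filters, the replicate block, only the 6 libraries, 4-day libraries only, other minimum changes and leaving out each library. A comparison of promoter CpG content was void, since 66.9% of tested genes had a RefSeq window, under the 80% needed. mTEClo libraries of newborn mice were used only for the shared spread.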

Additional observations from a re-analysis of the deposited data

Results flagged for a closer look

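For 22 named genes the effect of EED loss differed between cells without and with Aire by the interaction test of the same edgeR fit (adjusted p under 0.05). The values are the log2 effect without Aire minus that with Aire. Positive differences were found at imprinted loci for Rtl1 (3.36), Rian (3.2), Dlk1 (3.57), Mirg (2.67) and Asb4 (6.2). Asb4 had no count in AireKO, so its fitted value is no bound. Developmental and muscle factors with positive differences were Pax3 (3.44), Hoxb9 (3.48), Hoxc10 (2.97), Mef2c (2.67) and Ryr2 (2.25). Hoxc10 was not called in AireEEDdKO against AireKO. Other positive differences were Igf1 (3.14), Dclk1 (1.4), the serpin Serpinf1 (2.09) and the carrier Slc39a8 (2.64). Negative differences were found for Lypd8 (-2.41), Krtdap (-2.11) and Slc17a8 (-2.88), for the interferon-stimulated genes Usp18 (-1.36) and Ifit1 (-1.58), and for the cell division genes Ccna2 (-1.76), Tpx2 (-1.48) and Cdk1 (-1.72). The part of age in these differences was not tested.

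In the 5 Ctrl libraries the highest level was flagged against the spread of the others for Peg10, Mef2c and Zp2. For Peg10 it was 53.2 CPM beside a mean of 26.9 ± 15 (SD, n = 5). The distances in CPM were smaller for Mef2c (11.7 beside 9.3 ± 1.4) and Zp2 (75 beside 63.7 ± 6.4), whose libraries lay close together. Chance flags about 1 in 20 such groups.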

How the results depend on the processing

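The count of 1913 called genes lay between 1597 and 1943 with RLE scaling, library size alone, no filter, at least 10 counts, only the 6 libraries, the replicate block or DESeq2, and between 1409 and 1784 without 1 library. The fit with the replicate block used the 6 libraries alone and called 1741 genes (1169 higher, 572 lower), against 1644 in the same libraries without the block (1115 and 529), with 1096 and 524 shared. It tested 140 of 157 named called genes and lost 2 of these calls, Rbbp7 (-0.96), which was also lost without the block (-0.99), and Ifit1 (-0.99). The 4-day libraries alone gave 1227 calls (883 higher, 344 lower), 75 list members higher against 121, and 179 higher, 204 lower genes of the adult mTEChi set and 7 lower genes of the mTEClo set. With no minimum change 3400 genes were called, 1420 of them lower, and 18 of the mTEClo set were lower. With a 4-fold minimum 659 were called (502 higher, 157 lower), with 299 and 47 of the Aire-induced set, 148 and 120 of the mTEChi set, 138 and 5 of the mTEClo set, and 64 and 26 list members. An Aire-induced set cut at 4-fold held 283 higher and 18 lower genes. Lower genes of the mTEClo set ranged from 8 to 19 without 1 library. Muc2 ranged from -5.40 to 1.02 without 1 library, the latter without AireKO replicate 1. Of 157 named called genes 49 lost the call in at least 1 alternative other than the 4-fold minimum that tested them, 7 more were filtered out in an alternative, and the cause was not tested. The alternative window for promoter CpG content was not run, since that check was void. Depth limits the genes near 0 in AireKO, whose ratios have wide intervals.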
